A study of Mus musculus with 4 samples.

Results

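The cytosolic ribosomal proteins were taken as every probe set annotated with 1 gene symbol that is Rpl or Rps and a number, with an optional letter or l, or that is Rplp0, Rplp1, Rplp2 or Rpsa. S6 kinase symbols (Rps6k) and symbols marked -ps were left out. The rule gave 104 of the 41345 probe sets on the array and 64 of 17564 named genes, 40 of the large (60S) subunit and 24 of the small (40S) subunit. Their values were read in mouse dendritic cells, which the series' title names as conventional DCs of type 1 (cDC1), known for presenting antigen from dead cells to CD8 T cells. There were 4 groups with 1 array each. XCR1-deficient (KO) cells had received lipopolysaccharide (LPS, a bacterial ligand of Toll-like receptor 4, 100 ng/ml) with recombinant mouse XCL1 (100 ng/ml), or LPS alone, and wild-type (WT) cells had received the same 2 treatments. All 4 groups thus had LPS, and no untreated cells were analysed here. The mice were C57BL/6, 10 weeks old and labelled female. XCL1 is the chemokine ligand of XCR1, so the design asks how XCL1 changes LPS-treated cDC1 that have or lack its receptor. Neither the allele behind the deficiency nor the number of mice, the tissue or the duration of treatment is stated in the labels. With 1 array a group, no difference below has a replicate error or a p-value.

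The cytosolic ribosome is built in the nucleolus from ribosomal RNA and a fixed set of proteins. Their mRNAs are among the most abundant of any cell, and in mammals most of them start with a C followed by a run of pyrimidines, the 5′ terminal oligopyrimidine (TOP) motif. Through that motif mTOR signalling and the binding protein LARP1 control how strongly the mRNAs are translated and how long they last. Dendritic cells are known to raise protein synthesis early after LPS. Control at translation is not visible in mRNA signals such as these.

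Most members had a pyrimidine run near the annotated start, a feature that the rule did not use. The search did not ask that the run begin with a C at the first base of the mRNA, so it did not count TOP motifs. RefSeq promoters (GRCm38.p6) were in the table used here for 49 of the 64 members. The longest run of C or T on the gene's strand, searched from 25 bases before to 50 bases after the annotated start, had a median of 10 bases in the members, against 6 in all 27025 genes of the table. A run of at least 8 bases was found in 39 members (79.6%), against 30.4% of all genes and 28.8% of the 8957 genes that had a signal here, meaning a log2 array signal past the limit given further on. Below are 75 bases, from 45 before the annotated start to 29 after its first base, for 6 members whose longest run lies in that stretch. Rpl34, Rpl38 and Rpl5 are shown because the results below turn on them. Rps6, Rpl7a and Rps26 are shown beside them because their log2 signals spanned only 0.13, 0.09 and 0.21 over the 4 arrays, under the members' median range of 0.25. Capitals mark the longest run of pyrimidines, and all stretches read 5′ to 3′ on the gene's strand.
Rpl34 (chr3:130730308-130730382, minus strand): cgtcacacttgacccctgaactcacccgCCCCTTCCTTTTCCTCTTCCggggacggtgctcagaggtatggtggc
Rpl38 (chr11:114668535-114668609, plus strand): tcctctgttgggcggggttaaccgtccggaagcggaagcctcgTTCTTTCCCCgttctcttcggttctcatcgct
Rpl5 (chr5:107900483-107900557, plus strand): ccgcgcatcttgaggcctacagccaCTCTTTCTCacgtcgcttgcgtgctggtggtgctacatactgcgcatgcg
Rps6 (chr4:86857338-86857412, minus strand): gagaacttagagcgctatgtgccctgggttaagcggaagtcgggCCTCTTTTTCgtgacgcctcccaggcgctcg
Rpl7a (chr2:26910762-26910836, plus strand): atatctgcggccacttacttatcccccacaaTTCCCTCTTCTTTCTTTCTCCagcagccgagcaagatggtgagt
Rps26 (chr10:128626477-128626551, minus strand): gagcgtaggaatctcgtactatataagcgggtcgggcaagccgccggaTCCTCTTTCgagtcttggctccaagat
The run spans 20 bases in Rpl34 and 21 in Rpl7a, against 9 in Rpl5 and Rps26. Among these 6 members, picked with their values known, long and short runs were found with large and with small differences between arrays. Run length was not set against those differences over the 49 members. The runs of Rps6, Rpl38, Rpl34 and Rpl7a lie across the annotated start, and those of Rpl34 and Rpl7a begin 17 and 14 bases before it. The run of Rpl5 begins 20 bases before the start and ends before it, and that of Rps26 begins 3 bases after it.

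**Figure D1:**
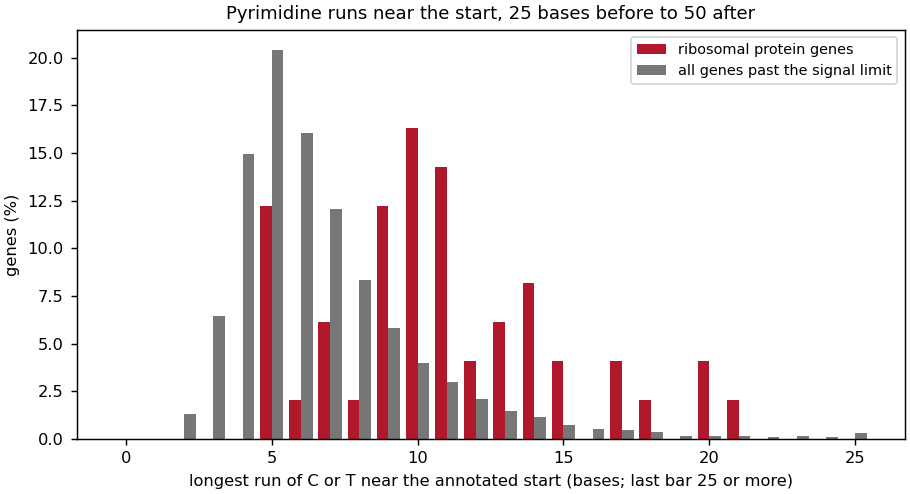
Longest run of C or T near the annotated start (x axis, bases) against the share of genes with a longest run of that length (y axis, percent), for 49 ribosomal protein genes (red) and 8957 genes past the signal limit (grey). The red bars are centred on longer runs, with medians of 10 and 6 bases.

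Short motifs were counted over the whole promoter, 250 bases before to 50 after the start, on both strands. CCGGAA, core letters of sites for ETS family factors, was in 57.1% of the members' promoters, against 29.9% of those of genes with a signal here and 16.7% of all. CTTTCC, which can lie inside a pyrimidine run, was in 46.9% of members, against 30.3% of genes with a signal and 29.3% of all. The TATA box letters TATAAA were in 10.2% of members, against 9.20% of genes with a signal and 15.7% of all. GGGCGG, the core of a GC box, was in 51.0% of members, against 66.9% of genes with a signal and 38.2% of all. These are matches of letters, not measured sites.

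A signal here is a log2 value per probe set after RMA, the array method that corrects background, equalises the arrays and summarises probes. A gene with several probe sets is given by the one with the highest mean. Genes were counted where at least 1 array reached 5.43, the median of all values, which 11096 genes did. Of the members 56 did, 34 of the large and 22 of the small subunit, and all counts and medians of members below are over these 56. A pair of arrays is called different where they differ at least 1.5-fold, 0.585 on the log2 scale. RMA makes arrays alike, so a shift of most genes at once would not be seen. In such bulk samples, fewer cells of a type and less RNA per cell cannot be told apart.

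Some values set the KO arrays apart from the WT arrays beyond the receptor, and they touch each genotype difference below. Xcr1 itself was 5.11 and 5.54 on the KO arrays with LPS and XCL1 and with LPS, against 7.19 and 6.42 on the WT arrays. Of 11 B cell markers 10 passed the limit, and 10 of 10 were lower in KO in both treatments, with a mean signal of 7.45 to 7.47 on KO arrays against 7.97 to 8.04 on WT arrays. Of 12 T cell markers 10 passed, and 10 of 10 were lower in KO in both, with means, over those that passed, of 6.40 to 6.47 against 6.85 to 6.88. Of 10 erythroid markers 4 passed, and 4 of 4 were higher in KO in both, with means of 6.78 to 6.79 against 5.66 to 5.70. The 9 of 10 neutrophil markers that passed had means of 7.16 to 7.30 against 6.91 to 6.92. For NK cells (4 of 6 markers) the means were 6.33 to 6.42 against 6.60 to 6.62, for macrophages (8 of 10) 7.33 to 7.39 against 7.32 to 7.36, and for plasmacytoid DCs (6 of 6) 8.19 to 8.33 against 8.44 to 8.47. The 11 of 13 cDC1 markers that passed had means of 8.29 on both KO arrays and 8.47 to 8.57 on WT arrays. Xcr1 itself is 1 of these 11 and widens that gap. The median KO minus WT difference of the 11 was -0.182 with LPS and XCL1 and -0.129 with LPS, with 3 above 0 in each. No marker is listed at a signal of 0. Xist, the RNA of the inactive X chromosome, was 4.57 and 4.65 on the KO arrays against 7.91 and 7.95 on the WT arrays, while the Y-linked Eif2s3y was 8.57 to 8.89 on all 4, which goes against the label female. The array names give WT and KO different prefixes, so array processing and genotype cannot be told apart. What part these differences have in the members' values was not tested.

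As a group, the ribosomal protein genes lay close to 0 in every comparison. The mean of the 56 members lay between 9.001 and 9.028 on each of the 4 arrays. The median difference of members was 0.003 for XCL1 in KO and 0.015 for XCL1 in WT, against 0.041 and 0.028 over all genes. Between genotypes, KO minus WT, it was -0.027 with LPS and XCL1 and -0.008 with LPS, against -0.039 and -0.051 over all genes. Members lay on both sides of 0 in the genotype pairs, 24 above and 32 below with LPS and XCL1, and 28 above and 28 below with LPS alone. Of all 11096 genes, 4793 were above and 6297 below with LPS and XCL1, and 4421 above and 6667 below with LPS alone. Setting the arrays to a common median over the 11096 genes (centring) moved the median of all genes to 0.062 and 0.051 and that of members to 0.074 and 0.095, with 35 and 39 members above 0, so these small medians have no settled sign. Relative to the median of all genes, the members' median was 0.012 and 0.043 both as deposited and after centring. It was -0.038 and -0.006 with cyclic loess and -0.031 and 0.025 with quantile normalization, so its sign turned with the scaling too. The median size of a member's difference, without its sign, was 0.13 and 0.12 in these genotype pairs, against 0.16 and 0.14 over all genes. In the XCL1 pairs it was 0.10 in KO and 0.07 in WT, against 0.12 and 0.10. These sizes depended on how bright a gene was. Among the 20 members with a mean signal under 8 it was 0.154 and 0.216 in the genotype pairs and 0.246 and 0.113 for XCL1 in KO and in WT. The 8001 genes of that brightness had 0.172 and 0.154, and 0.136 and 0.122, so these dim members lay above genes at large with LPS alone and for XCL1 in KO. Among genes with a mean signal of at least 8, the median range over the 4 arrays was 0.18 in the 36 members and 0.22 in all 3095 genes.

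**Figure D2:**
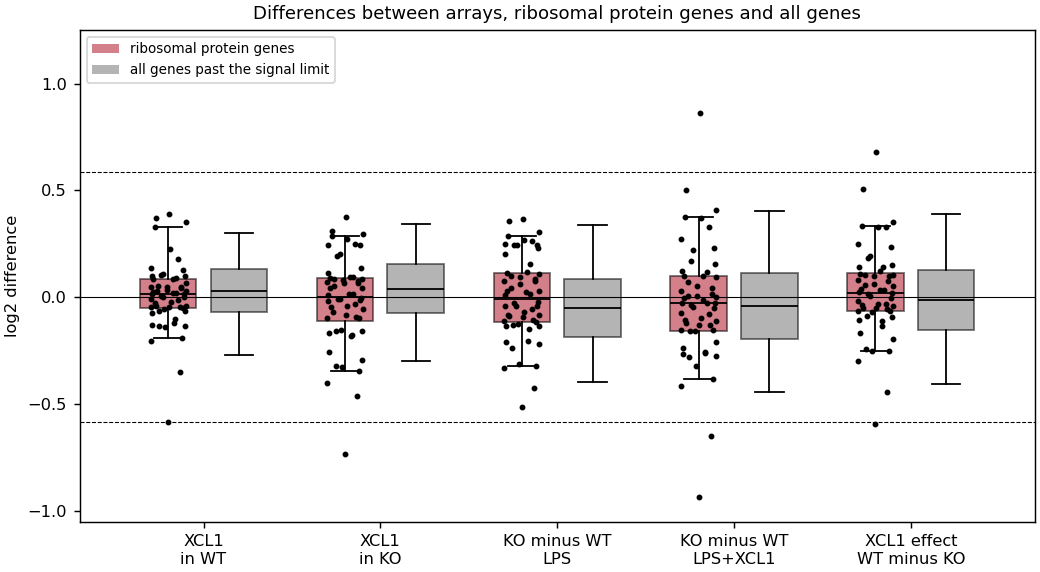
Log2 differences between arrays (y axis) in 5 comparisons (x axis) for 56 ribosomal protein genes (red boxes, each gene a black point) and 11096 genes past the signal limit (grey boxes). Boxes hold the middle 50% with the median as a line, whiskers run to percentiles 5 and 95 and dashed lines mark 1.5-fold. The members' boxes sit at 0 in every comparison, with 0 to 3 points outside the dashed lines.

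The members past 1.5-fold were few, and their share was near that of all genes in the genotype pairs. In KO against WT cells given both LPS and XCL1 there were 3 of 56 (5.36%), Rpl34 and Rps23 lower and Rpl7 higher, where 3.50% of all genes passed. With LPS alone there were 0, where 2.02% of all genes passed. For XCL1 there was 1 in KO, Rpl5 (all genes 1.03%), and 1 in WT, Rpl39l (all genes 0.559%). The XCL1 effect in WT minus that in KO passed in 2, Rpl5 and Rpl7, where 2.93% of all genes passed. No member reached 2-fold in any of the 5 comparisons, where 0.388% and 0.216% of all genes did for KO against WT with and without XCL1, 0.0541% and 0.0180% for XCL1 in KO and in WT, and 0.198% for the difference of the XCL1 effects. At a looser 1.2-fold, 15 and 10 members passed for KO against WT with and without XCL1, where 28.6% and 23.1% of all genes did. For XCL1 in KO and in WT 12 and 6 passed, where 17.0% and 12.6% of all genes did, and for the difference of the XCL1 effects 9 passed, where 24.1% did. Of the 5 members past 1.5-fold in any comparison, all but Rpl7, thus 4, had a mean signal under 8, as had 20 of the 56.

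Members that were lower in KO in both treatments came from both subunits. Rpl34, a large-subunit protein, had a signal of 6.28 and 6.43 in KO cells with LPS and XCL1 and with LPS, against 7.21 and 6.86 in WT cells. Both KO values lay below both WT values. Arrays of a genotype differ in treatment and are not replicates, and how many of all genes separate in this way is not given. The difference was -0.93 with LPS and XCL1, a 1.91-fold lower signal, and -0.43 with LPS, a 1.34-fold lower one. A probe set annotated with both Rpl34 and Rpl34-ps1 had 12.48 and 12.39 in KO cells against 12.43 and 12.42 in WT cells, and differed by 0.05 and -0.03, so a difference of that size was seen in only 1 of these probe sets. Rps23, which lies at the decoding centre of the small subunit, had 6.36 and 6.83 in KO cells against 7.01 and 7.15 in WT cells. Rps23 differed by -0.65 and -0.32. Rpl38, a large-subunit protein known in mice for skeletal patterning when mutated, had 10.85 and 10.77 in KO cells against 11.26 and 11.08 in WT cells. Its differences of -0.41 and -0.31 are 1.33-fold and 1.24-fold. These 3 members were lower by at least 1.2-fold in both genotype pairs, where 6.38% of all genes were.

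Others were higher in KO in both treatments. Rpl7, a large-subunit protein, had 10.28 and 10.04 in KO cells with LPS and XCL1 and with LPS, against 9.42 and 9.77 in WT cells. The difference was 0.86 (1.82-fold) with LPS and XCL1 and 0.27 with LPS. Rpl9, another large-subunit protein, had 8.97 and 8.78 in KO cells against 8.59 and 8.47 in WT cells, and differed by 0.37 and 0.31. Rps20, on the head of the small subunit, had 6.26 and 5.97 in KO cells against 5.93 and 5.60 in WT cells, so its KO value with LPS and its WT value with LPS and XCL1 nearly met. Its differences were 0.33 and 0.37, while a second probe set of Rps20 gave -0.02 and 0.17. A second probe set of Rpl9, below the limit, gave 0.06 and -0.08. By their brightest probe sets these 3 members passed 1.2-fold in both pairs, where 3.87% of all genes did. Rps24, a small-subunit protein whose mutation in people causes Diamond-Blackfan anaemia, had 10.07 and 10.00 in KO cells against 9.69 and 9.76 in WT cells. The differences were 0.38 and 0.24, the second just short of 1.2-fold. Rps4x, the X-linked small-subunit protein, had 10.69 and 10.59 in KO cells against 10.41 and 10.35 in WT cells, and differed by 0.27 and 0.24. The other X-linked member, Rpl39, differed by -0.03 and 0.07, and a probe set that shares its symbol with predicted genes by -0.21 and -0.29.

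**Figure D3:**
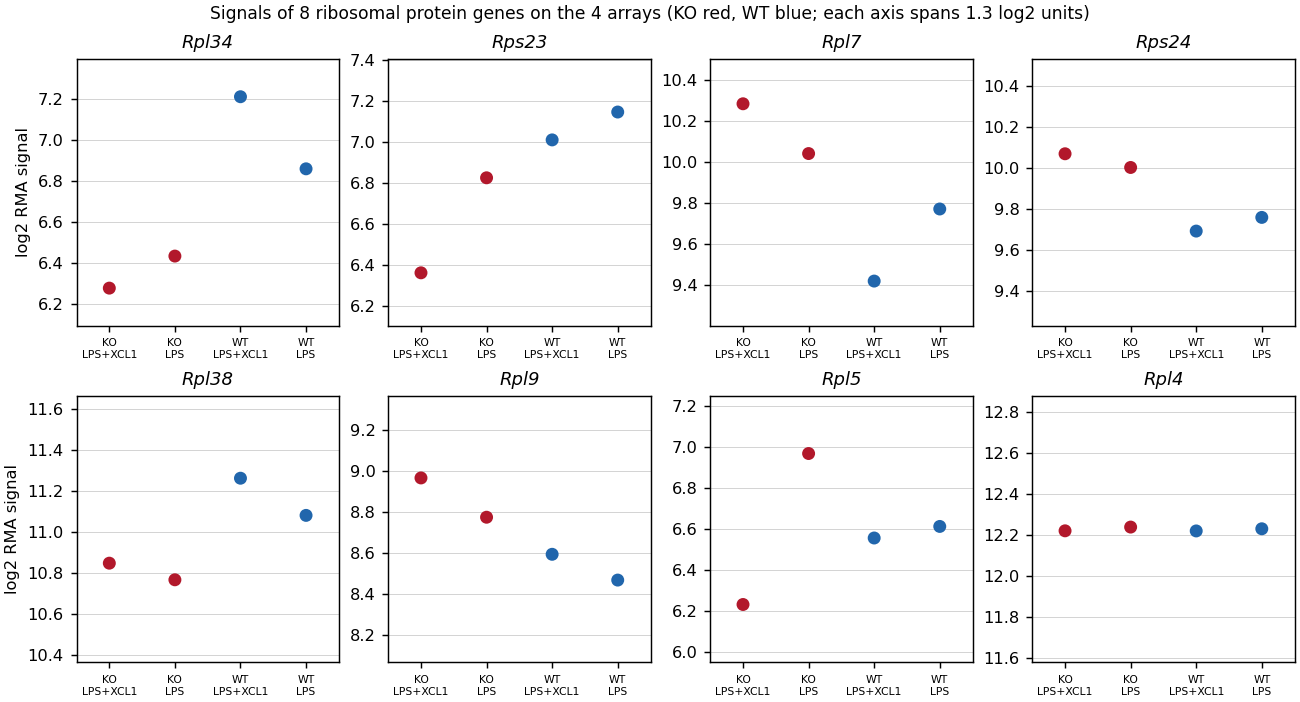
Log2 RMA signals (y axis, each panel spanning 1.3 log2 units around its own centre) of 8 ribosomal protein genes on the 4 arrays (x axis), with 1 point per array, KO in red and WT in blue. Rpl34, Rps23 and Rpl38 are lower on both KO arrays, Rpl7, Rps24 and Rpl9 are higher on both, Rpl5 is high in KO with LPS and low in KO with LPS and XCL1, and Rpl4 is level.

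The genotype differences were correlated between the 2 treatments, which share no array. Across the 56 members, the difference with LPS and XCL1 and that with LPS had a Pearson correlation of 0.646 and a Spearman correlation of 0.635, and 40 members (71.4%) had the same sign. Over all 11096 genes r was 0.527, with 67.6% of the same sign. Among members with a mean signal of at least 8, r was 0.763, beside 0.715 in all such genes. These are correlations across genes, which are not independent replicates, and both pairs carry whatever separates the KO from the WT arrays. In some members the genotype difference was larger in 1 treatment. Rpl6 was at 6.10 and 5.85 in KO cells with LPS and XCL1 and with LPS, against 6.17 and 6.37 in WT cells, a difference of -0.07 with LPS and XCL1 and -0.51 with LPS. Rps13 was at 8.58 and 8.31 in KO cells against 8.17 and 8.16 in WT cells, a difference of 0.41 with LPS and XCL1 and 0.15 with LPS. A probe set annotated with both Rps13 and the small RNA Snord14a differed by 0.02 and -0.51. Whether the treatments differ in this was not tested, since each value is 1 array.

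**Figure D4:**
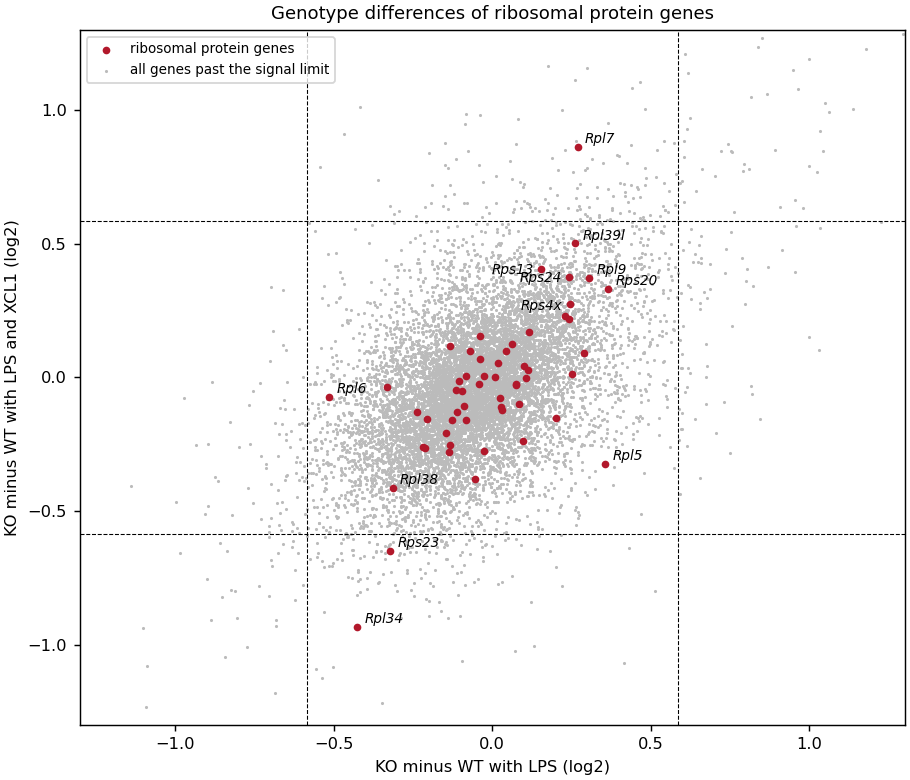
KO minus WT (log2) with LPS (x axis) against KO minus WT with LPS and XCL1 (y axis) for 56 ribosomal protein genes (red) and all genes past the signal limit (grey), with dashed lines at 1.5-fold. The axes run to 1.3 either way and leave out 11 of 11096 genes. Rpl34, Rps23 and Rpl7 lie past the dashed lines of the y axis, and no member passes those of the x axis.

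XCL1 differences shared by both genotypes were found in 3 small-subunit genes with signals close to the limit. Rps7 had 6.03 with LPS and XCL1 against 5.65 with LPS in KO cells, and 6.16 against 5.77 in WT cells. Rps14, whose loss causes anaemia in the human 5q deletion syndrome, had 6.14 against 5.83 in KO cells and 6.35 against 5.97 in WT cells. Rps20 had 6.26 against 5.97 in KO cells and 5.93 against 5.60 in WT cells. The differences were 0.37, 0.31 and 0.29 in KO and 0.39, 0.37 and 0.33 in WT, for Rps7, Rps14 and Rps20 in that order. The second probe set of Rps20 went the other way, with -0.28 in KO and -0.08 in WT. By their brightest probe sets these 3 passed 1.2-fold upward in both genotypes, 5.36% of members, where 1.41% of all genes did. Rpl39l, a paralog of Rpl39 known from testis, passed 1.2-fold downward in both (all genes 1.00%), with 5.30 against 5.64 in KO cells and 4.79 against 5.38 in WT cells. Only its KO signal with LPS reached the limit. Both WT signals lay below it, so the call in WT rests on values under the limit. Across the 56 members, r between the XCL1 differences in KO and in WT, which share no array, was 0.373, against 0.132 over all genes. In the 36 members with a mean signal of at least 8 it was 0.115, against 0.153 in all such genes.

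Rpl5 and Rpl11, which together with the 5S ribosomal RNA form the particle that binds Mdm2 when ribosome assembly fails, were lower with XCL1 in KO by their probe sets with 1 symbol. Rpl5 had 6.23 with LPS and XCL1 against 6.97 with LPS in KO cells, and 6.56 against 6.61 in WT cells. The KO cells thus held both its highest and its lowest signal. The effect of XCL1 was -0.06 in WT and -0.74 in KO, a 1.67-fold lower signal in KO, and the WT effect minus the KO effect was 0.68. A probe set annotated with both Rpl5 and Rpl5-ps2 went the other way, with 9.25 against 8.90 in KO cells and 8.58 against 8.67 in WT cells. There the effect was -0.09 in WT and 0.35 in KO, a difference of -0.44, so the direction for Rpl5 depended on the probe set. Rpl11 had 5.45 against 5.85 in KO cells and 5.60 against 5.65 in WT cells, an effect of -0.05 in WT and -0.40 in KO. Its signals were all close to the limit. With XCL1 in KO, lower values were also found for Rps23 (-0.46), Rpl29 (-0.33), Rps18 (-0.32) and Rpl28 (-0.29), whose effects in WT were -0.14, 0.001, 0.014 and -0.04. A second probe set past the limit gave -0.07 in KO for both Rpl29 and Rps18. Rpl28 and Rpl29 are large-subunit proteins and Rps18 is a protein of the small subunit's head.

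Some members had XCL1 effects of opposite sign in the 2 genotypes. For Rpl7 the effect was -0.35 in WT and 0.24 in KO, a difference of -0.59. For Rpl34 it was 0.35 in WT and -0.16 in KO, a difference of 0.51. The brighter probe set annotated with both Rpl34 and Rpl34-ps1 gave 0.006 in WT and 0.084 in KO, a difference of -0.079. The opposite signs for Rpl34 were thus seen in only 1 of these probe sets. For Rpl6 the effect was -0.19 in WT and 0.25 in KO, a difference of -0.44. Over the 56 members the median of WT effect minus KO effect was 0.021, and over all genes -0.011. By subunit it was 0.07 in the 34 large-subunit members, 22 of them above 0, and -0.04 in the 22 small-subunit members, 9 of them above 0. Of all 11096 genes 5296 were above 0. In the genotype pairs the medians were -0.061 (large) and 0.018 (small) with LPS and XCL1, and -0.008 and 0.010 with LPS. Whether the subunits differ was not tested.

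The probe sets of a gene show how far a value depends on the probes, though all share the same 4 RNA samples. Of the 64 members, 24 had several probe sets, and 20 had several with different values past the limit. The SD between probe sets of a gene, over those 20, was 0.17 between genotypes with LPS and XCL1 and 0.18 with LPS. It was 0.20 for XCL1 in KO and 0.23 in WT. These SDs were numerically larger than the median size of a member's difference in each pair. An SD weighs outlying values more than a median does, and the sets of genes differ, so these are not like measures. Of these 20 genes, 10 had all probe sets past the limit on the same side of 0 between genotypes with LPS and XCL1, and 11 with LPS. Rps12, Rpl19 and Rps19 kept to 1 side in both pairs, as did Rps24 and Rpl29. The 3 probe sets of Rps24 were 0.32 to 0.50 higher in KO with LPS and XCL1 and 0.24 to 0.42 higher with LPS. Rpl29, which had 2 probe sets, was lower in KO by both, with -0.45 and -0.38 with LPS and XCL1 and -0.33 and -0.05 with LPS. Rpl7 rests on 1 probe set, since the other stayed below the limit on every array, where it differed by 0.16 and 0.47. Rpl34, Rps23, Rpl38 and Rpl5 each have a single probe set with 1 symbol, beside which Rpl34 and Rpl5 have the ones shared with a pseudogene that are given with them.

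Other genes had probe sets that disagreed. The brightest probe set of Rpl21 differed with XCL1 by -0.01 in KO and -0.04 in WT, and another by -0.05 and -0.02. The dimmest differed by 0.55 and 0.61, with signals of 7.18 against 6.63 in KO cells and 7.11 against 6.50 in WT cells. The probe sets that share the symbol Rpl21 with predicted genes differed by 0.38 and 0.90 in KO and by 0.12 and 0.26 in WT. For this gene the size of the XCL1 difference depended on the probe set. The dimmest of 3 probe sets of Rpl3 was -0.85 in KO against WT with LPS, while its brightest was -0.21 and the other 0.03. Only its WT signal with LPS, 5.52, was above the limit. The 4 probe sets of Rpl41 past the limit, of a very short peptide of the large subunit, were above 0 with XCL1 in KO, at 0.00 to 0.12, and below 0 in WT, at -0.39 to -0.04.

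**Figure D5:**
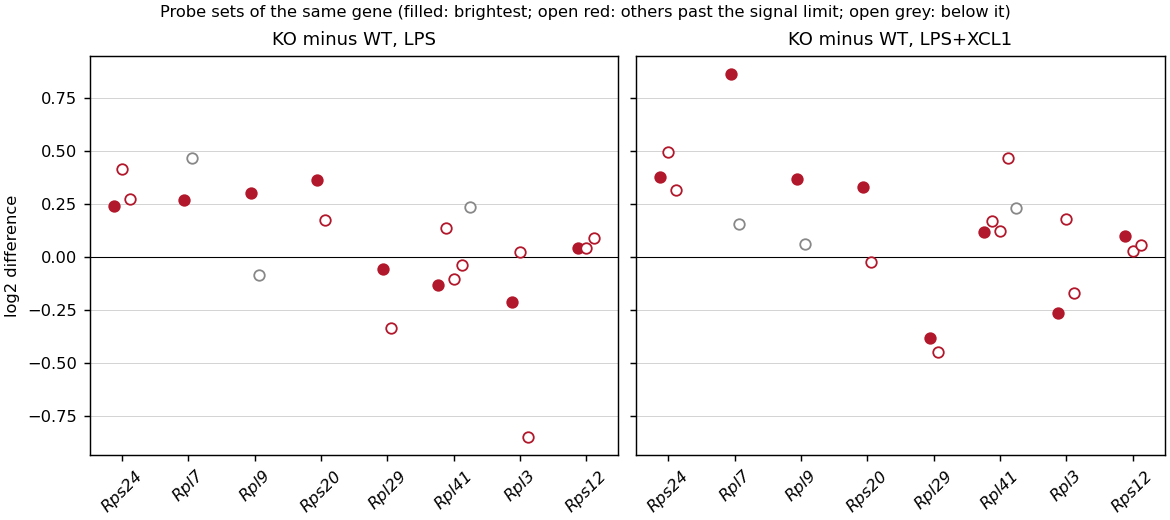
KO minus WT (y axis, log2) for each distinct probe set of 8 ribosomal protein genes (x axis), with LPS (left) and with LPS and XCL1 (right); filled points are the brightest probe set of a gene, open red points others past the signal limit and open grey points those below it. The 3 probe sets of Rps24 are above 0 in both panels, as are those of Rps12 and Rpl7. Probe sets of Rpl3 and Rpl41 spread on both sides of 0 in at least 1 panel.

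The stalk proteins, which recruit elongation factors to the large subunit, had no common direction. Rplp1 had 11.33 and 11.29 in KO cells with LPS and XCL1 and with LPS, against 11.59 and 11.51 in WT cells, a difference of -0.26 and -0.22, while a second probe set of Rplp1 gave 0.08 and -0.02. Rplp0 differed by -0.10 and 0.08, and the probe set of Rplp2 with 1 symbol was below the limit on all 4 arrays. A probe set annotated with both Rplp2 and the small RNA Snora52, past the limit, gave 0.207 and -0.255. Among paralogs of the same protein, Rps27 differed by -0.13 and -0.24 and Rps27l, a target of p53, by 0.07 and -0.04. A brighter probe set annotated with both Rps27 and Rps27rt, at 11.49 to 11.61, gave 0.11 and 0.09. The direction for Rps27 thus depended on the probe set. Rps4l, annotated as a transcribed pseudogene, differed by -0.16 and -0.13, the opposite sign from Rps4x. Rpl6l, annotated as a pseudogene, differed by 0.22 and 0.24, against -0.07 and -0.51 for Rpl6. Near-identical copies can share probes, so these pairs are uncertain. The flattest members were Rpl4, with 12.22 and 12.24 in KO cells against 12.22 and 12.23 in WT cells, and Rpl21, Rpl13, Rpl22 and Rps27l, with ranges over the arrays of 0.06 to 0.09. Rps6, the substrate of the S6 kinases, had 12.42 and 12.51 in KO cells against 12.41 and 12.54 in WT cells. A dim probe set annotated with both Rps6 and Rps6-ps4 reached the limit only in WT cells with LPS and XCL1. There it had 5.94, against 5.06 in WT cells with LPS, and its genotype differences were -0.588 and 0.160.

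The 8 members that reached the limit on no array were Rpl10l, Rpl27a, Rpl30, Rpl32l, Rpl3l, Rplp2, Rps15 and Rps16. Rpl3l and Rpl10l are known from muscle and testis, while Rpl27a, Rpl30, Rplp2, Rps15 and Rps16 encode core proteins of every cytosolic ribosome. A probe set below the limit does not measure whether the mRNA was present. Probe sets that share the symbols Rpl27a, Rpl30 and Rps16 with pseudogenes or predicted genes were far brighter. Such probe sets had 11.47, 10.99 and 10.98 on the KO array with LPS, and may read the other genes too. Of these 8, 5 passed 1.5-fold in some comparison, all on signals below the limit, and they are in no count above. A further 13 ribosomal protein genes, among them Rpl10, Rps2 and Rpl13a, had only probe sets annotated with several symbols. Of 57 probe sets with several symbols, at least 1 of them of the naming rule's form, 53 passed the limit. With LPS and XCL1, 1 was higher and 2 were lower by 1.5-fold in KO than in WT, and with LPS 0 were (all genes 3.50% and 2.02%). For XCL1, 3 were higher in KO and 1 in WT, with 0 lower in either (all genes 1.03% and 0.559%), and the WT effect minus the KO effect was above 0 past 1.5-fold in 1 and below 0 in 2 (all genes 2.93%). The 3 that were past 1.5-fold with XCL1 in KO share the symbols Rpl30, Rpl21 and Rps13, at 0.72, 0.90 and 0.62. The one of these 3 with Rpl30, whose own probe set is below the limit, had 9.66 with LPS and XCL1 against 8.95 with LPS in KO cells. In WT cells it had 9.15 against 9.26. Brighter probe sets that share the symbol Rpl30 with predicted genes differed by -0.08 and -0.19 in KO and by -0.07 and -0.21 in WT. The direction for Rpl30 in KO thus depended on the probe set.

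Genes that build or control the ribosome were set beside its proteins. For the counts below 0 that follow, KO minus WT was below 0 in 6297 of all 11096 genes with LPS and XCL1. With LPS it was below 0 in 6667. The 38 ribosome biogenesis genes, which process and assemble the particle, had a median KO minus WT difference of -0.061 with LPS and XCL1 and -0.146 with LPS, and 23 and 31 of them were below 0. Centring each array turned the first to 0.040 and left the second at -0.043. None reached 1.5-fold. Ncl, nucleolin, was higher in KO by 0.17 in both, with 10.33 and 10.32 in KO cells against 10.16 and 10.15 in WT cells. Of the 14 genes of RNA polymerase I and its factors, which transcribe ribosomal RNA, 8 and 10 were below 0, with medians of -0.083 and -0.148, or 0.018 and -0.046 after centring. Polr1e, a subunit of this polymerase, had 6.27 and 6.21 in KO cells against 6.64 and 6.61 in WT cells. The 67 mitochondrial ribosomal proteins, which belong to a separate ribosome, had medians of -0.196 and -0.123, with 55 and 50 below 0, or -0.096 and -0.020 after centring. Relative to the median of all genes the mitochondrial list was at -0.158 and -0.072, and at -0.134 and -0.068 with cyclic loess and -0.131 and -0.070 with quantile normalization. It kept its sign, unlike the cytosolic members. So did the biogenesis list, at -0.022 and -0.095 as deposited, -0.009 and -0.074 with cyclic loess and -0.016 and -0.085 with quantile normalization. The RNA polymerase I list and the growth signalling and other TOP lists given below also kept theirs. A kept sign was thus not particular to the mitochondrial list. Of the mitochondrial list 2 passed 1.5-fold with LPS and XCL1, 1 each way.

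Other mRNAs with a TOP motif were set beside the ribosomal proteins. The 17 measured, mostly translation factors, had median differences of 0.019 and -0.006 between genotypes with and without XCL1, and of -0.016 and -0.025 for XCL1 in KO and in WT. After centring the first 2 were 0.119 and 0.096. Eef1a1, the factor that carries aminoacyl-tRNA to the ribosome, had 12.85 and 12.89 in KO cells against 12.79 and 12.80 in WT cells. Larp1 differed by 0.000 and -0.004 in the genotype pairs. Mtor had 8.80 and 8.77 in KO cells against 9.08 and 8.83 in WT cells, and Myc, which drives ribosome genes, had 8.84 and 9.02 against 8.94 and 8.96. The 13 growth signalling genes past the limit had medians of -0.196 with LPS and XCL1 and -0.068 with LPS between genotypes, with 10 and 11 of them below 0, or -0.095 and 0.035 after centring. None of them reached 1.5-fold in either pair. In these pairs 6297 and 6667 of all 11096 genes were below 0. Of ribosomal genes outside the naming rule, Fau, whose product includes a small-subunit protein, differed by -0.04 and -0.03.

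The genes whose pattern over the 4 arrays was most like the members' mean were Prpsap1, Cpt2, Pigw, Eif2b3 and Mrpl52. Pearson's r over the 4 arrays ran from 0.998 to 1.00 among the 5211 genes with a range of at least 0.3. With 4 points and a mean that itself spans only 9.001 to 9.028, the likeness only describes these arrays.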

How the data were processed

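The authors deposited 1 log2 value per probe set and array, made with RMA at the gene level, per the labels' descriptions. The labels name no software or annotation build. RNA was extracted with TRIzol and biotin-labelled, per the labels' protocols. The 4 arrays (MoGene-2_0-st) were grouped by the labels, with 1 array in each group, which limits the precision, and only differences of log2 signals were computed. No p-value or set test was made. Of 41345 probe sets, 23521 had 1 gene symbol, 1814 several and 16010 were unnamed here. A RefSeq table (GRCm38.p6) held all 64 members' gene IDs and changed 0 symbols. Olfactory receptors, antigen receptor segments, small RNAs and predicted genes (4780 probe sets) were left out of the all-gene counts. Members, gene lists, thresholds and alternatives were chosen with earlier results of these data known. Named members were, in each comparison, the 6 or 8 most positive and most negative, those past 1.5-fold, the 5 widest and 5 narrowest ranges, those below the limit, stalk members, paralogs and genes with disagreeing probe sets; Rps6, Rpl7a, Rps26, Rpl39 and single list genes were added after their values were seen. The counting was tested on simulated arrays. Python 3.11.15, pandas 2.3.3, numpy 2.4.6, R 4.3.3 and limma 3.58.1 were used, the last for cyclic loess (span 0.7, 3 iterations) and quantile normalization as alternatives. Other alternatives were no limit or a limit of 6.91 on signal, centring, the mean of probe sets, leaving out X-linked members, and thresholds of 1.2-fold and 2-fold.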

Additional observations from a re-analysis of the deposited data

Results flagged for a closer look

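Rpl7 had XCL1 effects of opposite sign in the 2 genotypes, -0.351 in WT and 0.243 in KO, and the WT effect minus the KO effect was -0.594. The difference was not tested, since each group is 1 array. With the mean of both Rpl7 probe sets it was -0.143.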

How the results depend on the processing

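Counts of members past 1.5-fold were small, so single genes moved them. Without a limit on signal they were 3 for XCL1 in WT, 2 for XCL1 in KO, 5 for KO against WT with both agents and 6 for the difference of the XCL1 effects. The count for XCL1 in WT was 0 with the stricter limit, with cyclic loess and with quantile normalization, where Rpl39l was at -0.552 (loess) and -0.553 (quantile). The count for the difference of the XCL1 effects was 1 with cyclic loess, where Rpl7 was at -0.572, and 1 with the mean of probe sets, where it was at -0.143 and its difference for KO against WT with LPS and XCL1 at 0.511. At 2-fold the counts were 0, 0, 0 and 0 for XCL1 in WT, for XCL1 in KO, for KO against WT with both agents and for the difference of the effects. At 1.2-fold they were 6, 12, 15 and 9, and 10 for KO against WT with LPS. Centring moved the members' median for KO against WT to 0.074 with LPS and XCL1 and 0.095 with LPS. Over all genes it gave 336 higher and 93 lower calls with LPS and XCL1, beside 189 and 199 in the deposited values, and 208 and 52 with LPS, beside 112 and 112. For XCL1 it gave 26 higher and 88 lower in KO, beside 54 and 60, and 13 and 65 in WT, beside 25 and 37. After centring, Rps23 was at -0.547 and Rpl39l at 0.604 for KO against WT with LPS and XCL1. Of 28 recomputed values of members past 1.5-fold, 22 stayed past it and 0 changed sign. These are 7 results under cyclic loess, quantile normalization, centring and the mean of probe sets. Part of the agreement was fixed in advance. Rpl34, Rps23, Rpl39l and Rpl5 have a single probe set with 1 symbol, so the mean of probe sets left their values unchanged. Centring shifts all genes alike and barely moved the difference of the XCL1 effects, with Rpl7 at -0.592 and Rpl5 at 0.682. No paired analysis was possible because each group has 1 array, and no array could be left out. Apart from the thresholds and limits, which act on the counts by construction, the cause of these shifts was not tested.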
